A study of Homo sapiens with 2 samples.

Results

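Cells of the human breast epithelial line MCF10A that received a MEK inhibitor were compared with cells that received a PI3K inhibitor, both collected 30 h after EGF was added. Both inhibitors were added 15 h into the EGF treatment, so all cells compared here had EGF for 30 h and an inhibitor for the last part of it. Cells were chosen by their sample tag: each barcode was joined to its tag call and each tag to the condition name the authors gave it. This gave 962 cells with the MEK inhibitor (346 in library 1 and 616 in library 2) and 880 cells given the PI3K inhibitor (376 and 504), together 1842 of the 4837 cells of the study. The study tagged and pooled 8 conditions in each of 2 biological replicates, and each replicate was sequenced as 1 library. Cells with EGF alone at 30 h (245 and 344 cells) are given as the reference without inhibitor, and cells of the same inhibitors at 20 h (MEK inhibitor 216 and 244, PI3K inhibitor 332 and 187) as the earlier time. No source used here gives the names or doses of the inhibitors, so the size of a response cannot be read as the strength of a pathway.

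EGF binds its receptor and starts signalling routes that meet again at cell growth and division. MEK is the kinase that activates ERK, which enters the nucleus and induces early transcription factors as well as its own inhibitors. PI3K makes the lipid signal that activates AKT, which keeps FOXO transcription factors out of the nucleus and supports lipid and protein synthesis through mTORC1. MCF10A is an immortalised, non-tumorigenic line of basal-like breast epithelium that needs EGF to proliferate.

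UMIs, which count captured transcript molecules, were summed over the cells of a condition in each library. The sums of the MEK inhibitor held 4408002 and 8508948 UMIs and those of the PI3K inhibitor 4628345 and 6319978 UMIs in libraries 1 and 2. Median depths were 12216 and 13505.5 UMIs per cell with the MEK inhibitor against 11952 and 11650.0 with the PI3K inhibitor. The libraries shared 0 barcodes. All 10 markers listed for basal-type breast epithelium were detected and passed the filter on low counts, among them the keratins KRT5 and KRT14. Of 19 markers of other cell types, 8 were listed in both count tables and 4 had counts enough to be tested. Their summed level was 66.0 and 30.4 CPM (counts scaled to library size) with the MEK inhibitor, 35.8 and 22.4 with the PI3K inhibitor and 43.0 and 28.9 with EGF alone. The largest part of that sum with the MEK inhibitor was DCN, which encodes the matrix proteoglycan decorin, at 51.2 and 20.3 CPM with the MEK inhibitor and 18.1 and 6.83 CPM with the PI3K inhibitor. The part of these transcripts in the results was not tested. The defining immune marker PTPRC and the endothelial marker VWF were not among the genes listed in both tables.

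The 2 inhibitors left the cells with widely different transcriptomes at 30 h. Of 11147 genes tested, 4632 (41.6%) differed at an adjusted p under 0.05 (edgeR's quasi-likelihood test with a term for the library, Benjamini-Hochberg over all genes tested). Of the genes tested, 21.2% were called higher with the MEK inhibitor (2366 genes) and 20.3% lower (2266 genes), and 4615 of the 4632 had the same sign in both libraries. The median log2 difference over all genes was -0.01, and all log2 differences below are MEK inhibitor minus PI3K inhibitor with their standard error. Without the library term the count was 2703 (1415 higher and 1288 lower). It was also smaller when the 30 h inhibitor sums of library 2 were left out of the fit. With such a high share called, the counts given for each gene list are to be read against these percentages. Of the ERK output genes tested, 16 of 17 were lower with the MEK inhibitor, while 50 of 53 G2/M genes and 20 of 23 sterol genes were higher.

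**Figure D1:**
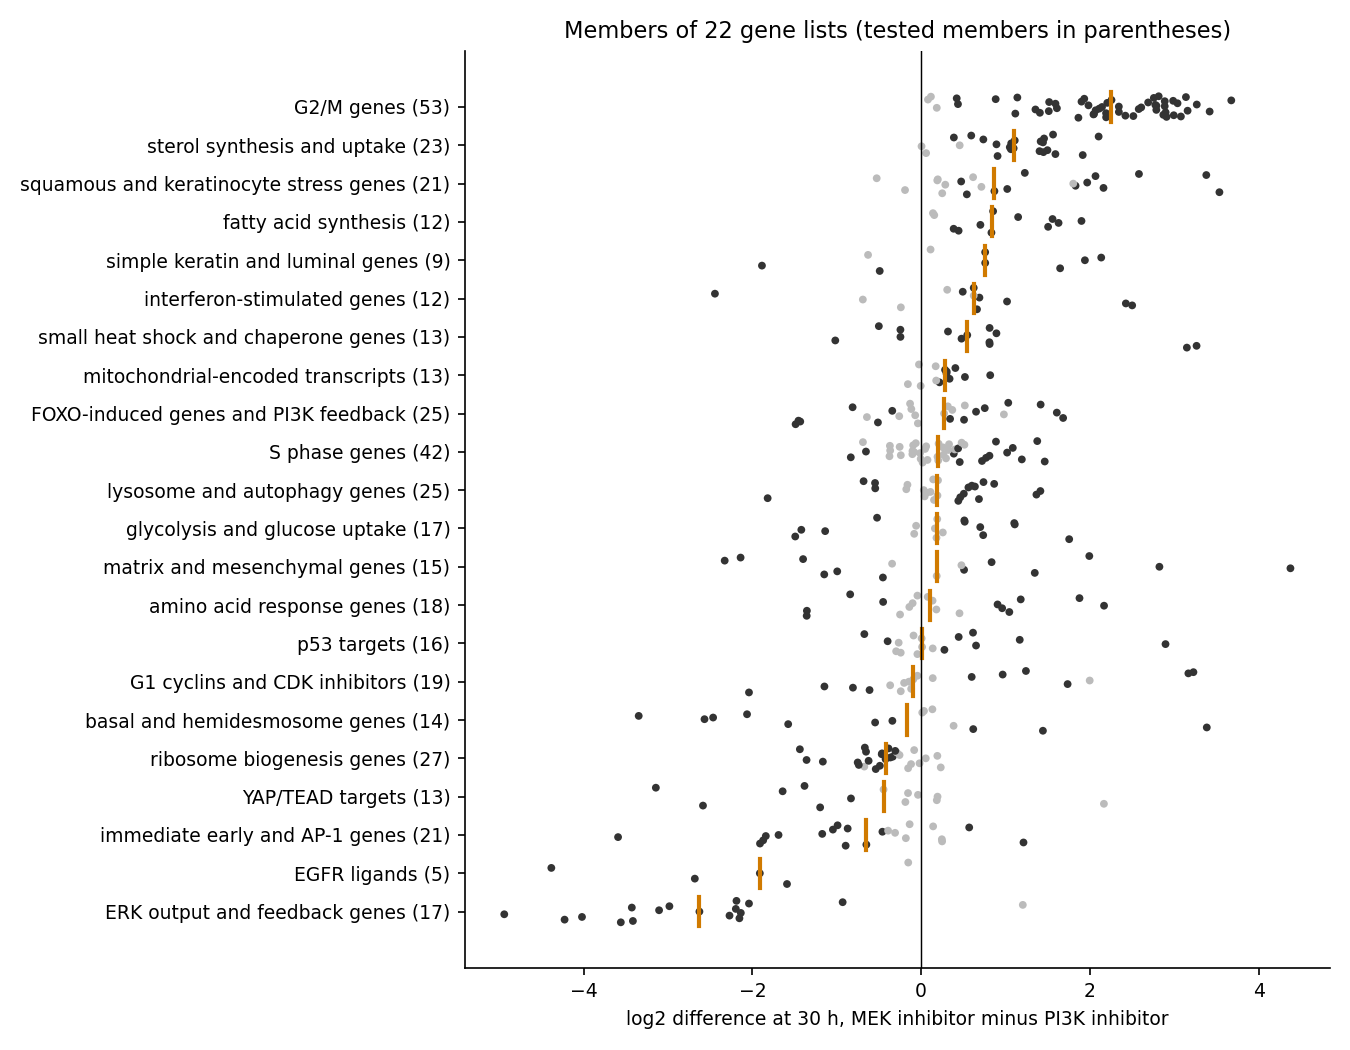
Log2 difference at 30 h (MEK inhibitor minus PI3K inhibitor, x axis) of the tested members of 22 gene lists, 1 point per gene, dark where the adjusted p was under 0.05 and grey where it was not. The orange bar is the median of the list, which ran from -2.63 for ERK output and feedback genes to 2.26 for G2/M genes, against -0.01 over all genes.

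The list of ERK output and feedback genes, which includes inhibitors that ERK induces against itself, had the lowest median. Of 17 tested genes of ERK output and feedback, 16 were lower with the MEK inhibitor, 0 were higher, and the median log2 difference was -2.63. DUSP6 (chr12:89347232-89353271 on GRCh38) encodes the phosphatase that inactivates ERK in the cytoplasm. It stood at 2.01 and 2.32 CPM with the MEK inhibitor and 44.3 and 41.1 CPM with the PI3K inhibitor in libraries 1 and 2, and at 22.2 and 23.0 CPM with EGF alone. The 3 conditions did not overlap, and the difference between the inhibitors was -4.23 ± 0.21 (adjusted p = 7.04e-23). DUSP4, a nuclear phosphatase of the same family, had 6.78 and 6.49 CPM against 71.9 and 82.0 CPM, a difference of -3.56 ± 0.15 (adjusted p = 8.53e-26). PHLDA1 had 6.03 and 7.76 CPM against 89.3 and 71.5 CPM (-3.43 ± 0.17), and EPHA2, an ephrin receptor induced by ERK, had 3.77 and 5.91 against 35.3 and 43.9 CPM (-2.98 ± 0.18). In all of these both libraries with the MEK inhibitor were below both with the PI3K inhibitor. SPRY4, which encodes a Sprouty inhibitor of receptor signalling, had 0 and 1 UMIs with the MEK inhibitor against 14 and 21 with the PI3K inhibitor, too few on the first side for a fold change. The ETS factors ETV4 (-3.11 ± 0.55) and ETV5 (-2.20 ± 0.41) were lower at low levels. The 1 member not called was EPHA4, another ephrin receptor, at 2.51 and 1.51 against 0.746 and 0.813 CPM (adjusted p = 0.111).

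Against EGF alone, the same list had a median log2 difference of -2.34 with the MEK inhibitor and 0.51 with the PI3K inhibitor, in comparisons that share the EGF-alone sums. DUSP6 was -3.32 with the MEK inhibitor (adjusted p = 2.12e-16) and 0.90 with the PI3K inhibitor (adjusted p = 8.90e-07). EPHA2 was -2.40 and 0.59 in the same comparisons. The PI3K inhibitor libraries therefore lay above those with EGF alone for both genes, and the MEK inhibitor libraries below them.

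**Figure D2:**
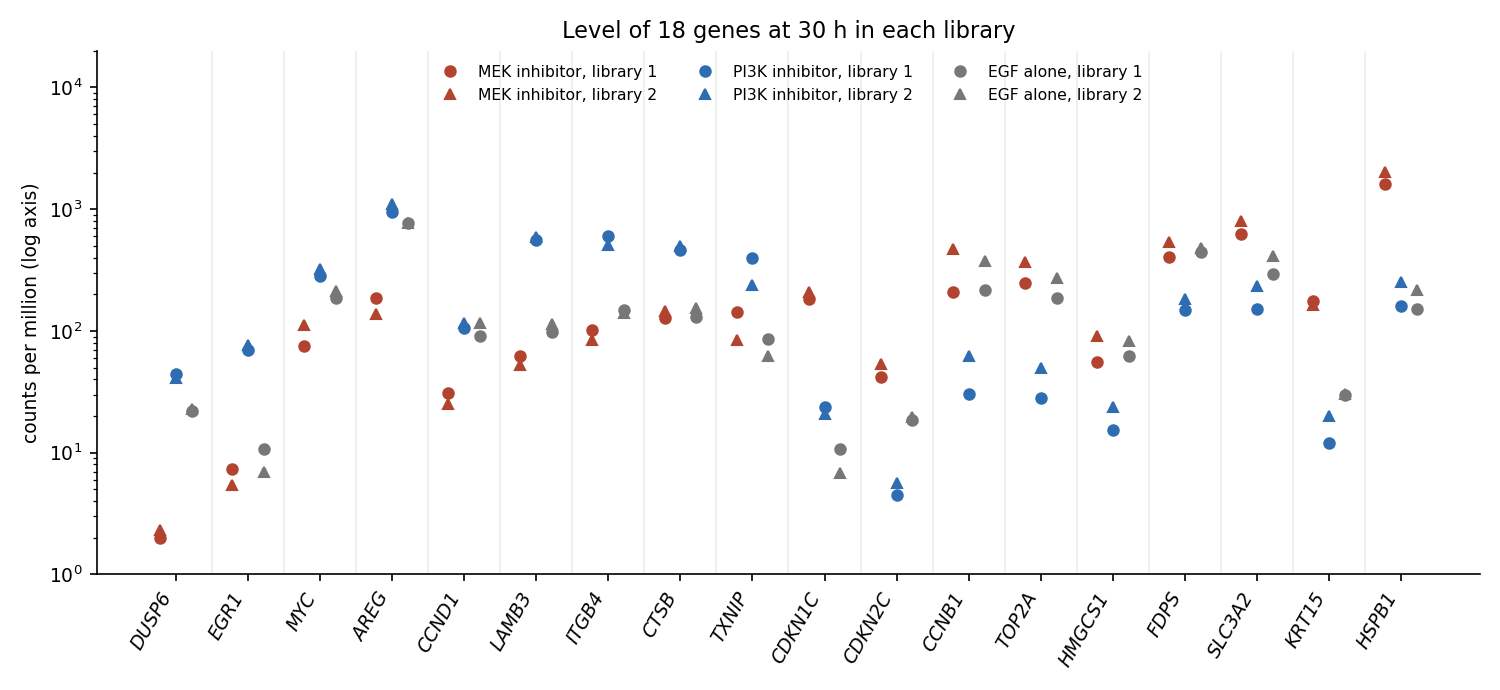
Level in CPM (log axis) of 18 genes at 30 h with the MEK inhibitor, the PI3K inhibitor and EGF alone, with a circle for library 1 and a triangle for library 2. The 18 genes were chosen among named genes called between the inhibitors, so their separation is no separate result. DUSP6 lies at 2.01 and 2.32 CPM with the MEK inhibitor against 44.3 and 41.1 CPM with the PI3K inhibitor. HSPB1 lies at 1606 and 2027 CPM against 159.9 and 252 CPM.

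Early transcription factors were mostly lower with the MEK inhibitor than with the PI3K inhibitor. Of 21 tested immediate early and AP-1 genes, 12 were lower with the MEK inhibitor and 2 higher, with a median of -0.65 (7 lower and 1 higher without the library term). Against EGF alone, the list had a median of -0.06 with the MEK inhibitor and 0.78 with the PI3K inhibitor. EGR1 (chr5:138465490-138469315), a zinc finger factor induced within minutes of growth factor signalling, was at 7.28 and 5.44 CPM with the MEK inhibitor and 70.1 and 76.4 CPM with the PI3K inhibitor, a difference of -3.59 ± 0.17 (adjusted p = 5.13e-24). With EGF alone it was at 10.8 and 6.93 CPM, values that overlap those of the MEK inhibitor, and the PI3K inhibitor libraries were the high ones (3.11 against EGF alone, adjusted p = 2.84e-21). The MEK inhibitor differed from EGF alone by -0.48 (adjusted p = 0.132). JUNB, an AP-1 subunit, was also highest with the PI3K inhibitor, with 57.0 and 70.0, 209.8 and 251 and 60.7 and 103 CPM for MEK inhibitor, PI3K inhibitor and EGF alone. FOSL1, the AP-1 subunit most tied to sustained ERK activity, had another order, with 4.77 and 6.60, 20.6 and 23.9 and 27.2 and 34.0 CPM, and differed between the inhibitors by -1.91 ± 0.21 (adjusted p = 3.88e-11). FOS itself did not overlap but was closer, with 175 and 345 CPM against 439.6 and 495 CPM (-0.90 ± 0.12, adjusted p = 8.53e-09 with the library term and 0.0853 without it). MYC, the growth regulator, was at 75.1 and 111 CPM against 282 and 324 CPM (-1.69 ± 0.11). The members called higher were FOSL2, an AP-1 subunit at 46.2 and 47.5 against 17.9 and 22 CPM, and BTG2, an antiproliferative gene with a difference of 0.57 ± 0.18 (adjusted p = 0.00735, 0.143 without the library term, and not called without library 2).

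Of 5 tested ligands of the EGF receptor, 4 were lower with the MEK inhibitor and 0 were higher. AREG, which encodes amphiregulin, the main autocrine ligand of breast epithelium, was at 186 and 137 CPM with the MEK inhibitor and 948 and 1109.9 CPM with the PI3K inhibitor, against 769.9 and 772 CPM with EGF alone. The difference was -2.68 ± 0.15 (adjusted p = 1.45e-21). HBEGF, the heparin-binding ligand, had 2 and 10 UMIs with the MEK inhibitor against 51 and 140 with the PI3K inhibitor (-4.38 ± 0.34). EREG (-1.91 ± 0.21) and TGFA (-1.59 ± 0.21), which encode epiregulin and TGF-alpha, were lower too, and TGFA with the PI3K inhibitor did not pass the test against EGF alone (-0.04, adjusted p = 0.884).

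Genes induced by FOXO or by loss of PI3K signalling did not move as a block between the inhibitors at 30 h. Of 25 tested, 8 were called higher with the MEK inhibitor and 6 lower, with a median of 0.27 (6 higher and 3 lower without the library term). At 20 h, 0 were called higher and 6 lower, with a median of -0.20. Against EGF alone at 30 h, the list had a median of 0.82 with the MEK inhibitor and 0.58 with the PI3K inhibitor. TXNIP, which restrains glucose uptake and is a FOXO target, was at 142 and 84.4 CPM with the MEK inhibitor and 399 and 238 CPM with the PI3K inhibitor, and at 86.5 and 61.9 CPM with EGF alone. The difference was -1.49 ± 0.11 (adjusted p = 5.93e-17), and both inhibitors were above EGF alone (0.58 and 2.07). IRS2, the insulin receptor adaptor that FOXO induces as feedback, was at 11.0 and 19.7 CPM against 43.8 and 45.0 CPM (-1.45 ± 0.15), and the MEK inhibitor did not pass the test against EGF alone for it (adjusted p = 0.532). In both genes the PI3K inhibitor libraries were the highest of the 3 conditions.

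Other members of the list went the opposite way. TSC22D3, which encodes the glucocorticoid-induced leucine zipper and is also a FOXO target, was at 182 and 169.7 CPM with the MEK inhibitor and 67.4 and 64.2 CPM with the PI3K inhibitor (1.42 ± 0.11, adjusted p = 2.09e-16). FBXO32, a ubiquitin ligase of the FOXO programme, had 14.3 and 11.6 against 3.48 and 4.55 CPM (1.61 ± 0.25), and FOXO1 itself 55.5 and 59.9 against 37.0 and 43.6 CPM (0.51 ± 0.11). CCNG2, a cyclin that slows the cycle and is induced by FOXO, was at 35.2 and 28.4 CPM with the MEK inhibitor and 34.1 and 30.4 CPM with the PI3K inhibitor. Its values overlapped and the difference of -0.04 ± 0.13 did not pass the test (adjusted p = 0.849), while both inhibitors were above the 14.2 and 12.5 CPM of EGF alone. The FOXO site TGTTTAC was searched on both strands in the 300 bases around the start of each gene. It was found in 4 of 24 members with a promoter in the RefSeq table (16.7%) and in 2.27% of tested genes. Of the 4, TXNIP and YPEL3 were called lower with the MEK inhibitor, BCL2L11 was not called and FOXO4 was not tested. The AP-1 site TGACTCA, searched likewise, was found in 1 of 12 promoters of the ERK list (8.33%) and in 3.03% of tested genes. That promoter was of SPRED3, which was not tested.

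Transcripts of LAMA3, LAMB3, ITGB4 and ITGA2 were lower with the MEK inhibitor. LAMA3 and LAMB3 encode chains of laminin, and ITGB4 encodes the integrin chain of the hemidesmosome that binds it. LAMB3 (chr1:209614870-209652466) was at 62.5 and 52.9 CPM with the MEK inhibitor and 558 and 594 CPM with the PI3K inhibitor, with 97.1 and 113 CPM for EGF alone between them. The difference was -3.35 ± 0.11 (adjusted p = 9.91e-30), one of the 2 smallest adjusted p values among the named genes. ITGB4 (chr17:75721328-75757818) was at 102 and 84.3 CPM against 598 and 507 CPM, with 149.9 and 139.5 for EGF alone, and differed by -2.57 ± 0.09. LAMA3 (-2.47 ± 0.12) had the same order, with EGF alone between the inhibitors in both libraries. Against EGF alone, LAMB3 was 2.45 with the PI3K inhibitor and -0.90 with the MEK inhibitor. ITGA2, the collagen-binding integrin chain, was at 4.02 and 3.71 against 45.3 and 36.9 CPM (-3.39 ± 0.19).

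The list of basal and hemidesmosome genes as a whole was split, with 7 of 14 tested members lower and 3 higher with the MEK inhibitor, and a median of -0.16. The 3 higher were keratins. KRT15 (chr17:41513743-41522529), a keratin of basal progenitor-type cells, was at 177 and 164 CPM with the MEK inhibitor, 11.9 and 20.0 CPM with the PI3K inhibitor and 29.8 and 30.4 CPM with EGF alone (3.38 ± 0.17, adjusted p = 6.03e-23). KRT5, the type II keratin of basal cells, was at 5814 and 6204 CPM against 1824 and 2649 CPM (1.44 ± 0.10), and its partner KRT14 at 15084 and 13569.6 against 9126 and 9498 CPM (0.62 ± 0.09). The inhibitors did not overlap for any of the 3, and reads of KRT14 may be shared with close copies of the gene.

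Simple keratins, which pair in luminal cells, did not move together. KRT8 was at 176 and 229.6 CPM with the MEK inhibitor and 84.0 and 51.5 CPM with the PI3K inhibitor (1.65 ± 0.13), whereas its partner KRT18 was at 188 and 216 against 742 and 762 CPM (-1.89 ± 0.10). Of the 9 tested genes of that list, 5 were higher and 2 lower (3 and 1 without the library term), with a median of 0.76. CD24, a surface glycoprotein, was at 174 and 257 against 40.3 and 73.3 CPM (1.94 ± 0.14) and MUC1, a mucin of the apical surface, at 85.6 and 96.3 against 19.9 and 21.6 CPM (2.13 ± 0.15). KRT7 was the other lower member (-0.49 ± 0.11, adjusted p = 1.47e-04, and 0.0653 without the library term).

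Cell cycle phase differed between the inhibitors. It was called from S and G2/M gene scores in cells of at least 6500 UMIs, thinned to that number. With the MEK inhibitor 33.0% of 318 cells in library 1 and 64.5% of 569 cells in library 2 were called G2/M. With the PI3K inhibitor the shares were 10.3% of 348 cells and 17.3% of 451 cells, and with EGF alone 53.8% of 223 and 79.4% of 325 cells. Both MEK inhibitor libraries were above both PI3K inhibitor libraries, but the MEK inhibitor libraries also lay far from each other. Calls of G1 were 65.1% and 35.1% for the MEK inhibitor against 86.5% and 78.7% for the PI3K inhibitor, and calls of S were 1.89% and 0.351% against 3.16% and 3.99%. Exact 95% binomial intervals, which cover counting error alone, ran from 27.9% to 38.5% and from 60.4% to 68.4% for G2/M with the MEK inhibitor, and from 7.35% to 14% and from 13.9% to 21.1% with the PI3K inhibitor. Without thinning the shares were 30.9% and 65.3% against 9.57% and 22.6%. Of thinned cells collected at 0 h, 0 of 137 in library 1 and 4 of 17 in library 2 were called G2/M. The library 2 value is 23.5% (interval 6.81% to 49.9%), so G2/M calls in that library also occurred without EGF treatment time. No test was made, because with 2 libraries a side the smallest p of an exact permutation test that ignores the library is 0.333. Permuting within libraries allows fewer arrangements still. Of the cells compared, 7% lay within 0.05 of a phase boundary.

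**Figure D3:**
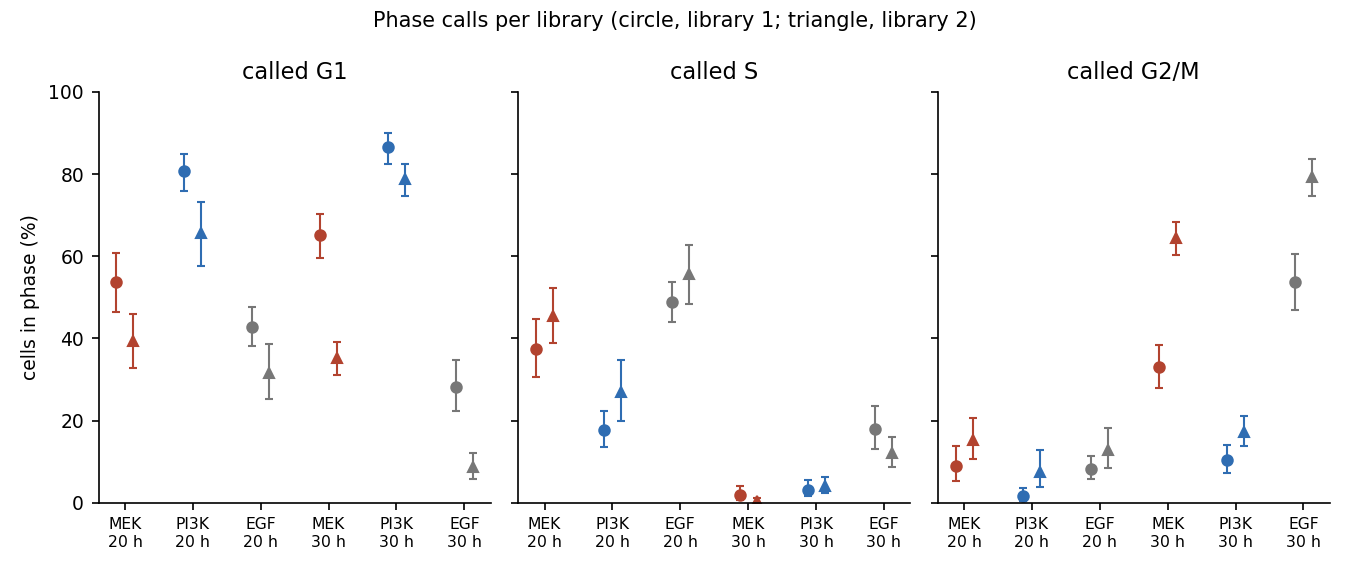
Share of cells called G1, S and G2/M (y axis, percent) in each library, with the MEK inhibitor in red, the PI3K inhibitor in blue and EGF alone in grey at 20 h and 30 h. Bars are exact 95% binomial intervals. At 30 h the G2/M shares are 33.0% and 64.5% with the MEK inhibitor against 10.3% and 17.3% with the PI3K inhibitor.

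Between the inhibitors, genes of G2 and mitosis differed in the direction of the G2/M shares, which were themselves called with the G2/M list. Of 53 tested G2/M genes, 50 were higher with the MEK inhibitor, 0 were lower, and the median was 2.26. Against EGF alone, the list had a median of 0.04 with the MEK inhibitor and -2.24 with the PI3K inhibitor. In each library either inhibitor had a smaller G2/M share than EGF alone, so for the MEK inhibitor the list median did not follow the share. CCNB1 (chr5:69167010-69178245), the cyclin that starts mitosis with CDK1, was at 208 and 473 CPM with the MEK inhibitor, 30.1 and 62.8 CPM with the PI3K inhibitor and 216 and 375 CPM with EGF alone. It differed between the inhibitors by 2.85 ± 0.12 (adjusted p = 1.02e-25), and the MEK inhibitor did not pass the test against EGF alone (0.16, adjusted p = 0.206). TOP2A, which untangles replicated DNA, was at 246 and 370.0 against 28.3 and 49.4 CPM (2.99 ± 0.13), and MKI67, the Ki-67 proliferation marker, at 104 and 174 against 25.1 and 35.9 CPM (2.19 ± 0.12). CCNB2 (3.16 ± 0.14), CENPF (2.90 ± 0.13) and UBE2C (3.08 ± 0.14), which encode cyclin B2, a kinetochore protein and the ubiquitin-conjugating enzyme of mitotic exit, were of like size. PIF1, a DNA helicase, and KIF20A, a kinesin of cytokinesis, both outside the list, were among the 12 largest differences towards the MEK inhibitor, with 71 and 232 UMIs against 2 and 1 for PIF1 and 24.9 and 36.4 against 1.24 and 2.11 CPM for KIF20A. PSRC1, a spindle protein, was also among them (12.3 and 27.8 against 0.497 and 2.44 CPM).

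Phase was called with these same genes, so their difference within cells of 1 phase is limited by the calls. Among cells called G1 (MEK inhibitor 207 and 200, PI3K inhibitor 301 and 355), 5 of 36 tested G2/M genes were higher, 2 were lower, and the median was 0.18. UBE2C differed there by -0.09 (adjusted p = 0.799), the opposite sign. Among cells called G2/M (105 and 367 against 36 and 78), 47 of 53 were still higher with the MEK inhibitor and 1 was lower, with a median of 1.30. The part of the phase shares in the whole-population difference was not tested further.

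A sequence found in many promoters of the G2/M list is shown as a description. Its part in the difference between the inhibitors was not tested. TTTGAA, the cell cycle homology element of many G2/M gene promoters, was searched on both strands from 250 bases before to 50 after the start. It was present in 30 of 44 G2/M genes with a promoter in the RefSeq table (68.2%), in 9.41% of 8727 tested genes with one and in 15.4% of all 27305 promoters. The 3 called members with the smallest p among those that hold it are shown, with capitals marking the element, read 5′ to 3′ on the strand of the gene from the RefSeq table for GRCh38.p14. TTCAAA is the same element on the other strand. The windows are chr17:40417847-40418146 (minus strand) for TOP2A, chr1:214602945-214603244 (plus strand) for CENPF and chr15:59104896-59105195 (plus strand) for CCNB2.
TOP2A: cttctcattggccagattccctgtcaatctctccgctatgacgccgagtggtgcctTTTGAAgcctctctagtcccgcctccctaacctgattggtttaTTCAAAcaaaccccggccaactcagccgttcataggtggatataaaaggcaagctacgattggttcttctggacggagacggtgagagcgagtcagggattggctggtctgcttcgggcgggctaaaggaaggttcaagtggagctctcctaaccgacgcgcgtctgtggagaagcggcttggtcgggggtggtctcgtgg
CENPF: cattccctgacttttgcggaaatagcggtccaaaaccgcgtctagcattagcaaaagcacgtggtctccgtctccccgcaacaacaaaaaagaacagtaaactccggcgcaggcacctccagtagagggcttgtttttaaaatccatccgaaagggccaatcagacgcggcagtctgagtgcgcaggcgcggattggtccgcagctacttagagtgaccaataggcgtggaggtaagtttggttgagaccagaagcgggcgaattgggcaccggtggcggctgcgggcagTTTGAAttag
CCNB2: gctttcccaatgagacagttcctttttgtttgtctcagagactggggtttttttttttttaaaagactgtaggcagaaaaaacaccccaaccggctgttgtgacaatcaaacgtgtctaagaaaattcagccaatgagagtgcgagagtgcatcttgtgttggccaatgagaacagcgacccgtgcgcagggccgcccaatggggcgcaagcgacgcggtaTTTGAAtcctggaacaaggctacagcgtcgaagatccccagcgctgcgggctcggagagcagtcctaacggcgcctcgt
A match describes the letters of the window and is no evidence of binding.

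Replication genes differed less. Of 42 tested S phase genes, 12 were higher and 2 lower with the MEK inhibitor (7 and 1 without the library term), with a median of 0.20. TYMS, which makes thymidylate, was at 70.1 and 71.9 against 22.1 and 28.5 CPM (1.46 ± 0.13, not called in G1-called cells with an adjusted p of 0.425) and RRM1, a subunit of ribonucleotide reductase, at 96.4 and 116 against 39.3 and 53.3 CPM (1.19 ± 0.11). PCNA, the sliding clamp of DNA polymerase, was closer, at 141 and 132 against 87.3 and 109 CPM (0.46 ± 0.12, adjusted p = 0.00132, 0.114 without the library term, and not called without library 1). Both inhibitors were below the 289.7 and 224 CPM of EGF alone. The 2 lower members were CDCA7 (-0.83 ± 0.25), a MYC and E2F target, and WDR76 (-0.65 ± 0.27), both at low levels. WDR76 was not called without the library term (adjusted p = 0.0705) or without either library, nor CDCA7 without library 1. S phase genes also served to call phase, so their differences within G1-called cells are limited by the calls. Among those cells 2 of 35 were higher and 11 lower, with a median of -0.48. FEN1, the flap endonuclease, went from 0.72 to -0.18 and RAD51AP1, a recombination factor, from 1.02 to -0.48. The E2F site TTTCCCGC was found in 8 of 32 promoters of the list (25%) and in 2.84% of those of tested genes.

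A pair of inhibitors of cyclin-dependent kinases were far higher with the MEK inhibitor. CDKN1C (chr11:2883213-2885773), which encodes p57, was at 184 and 207 CPM with the MEK inhibitor, 23.6 and 20.7 CPM with the PI3K inhibitor and 10.8 and 6.76 CPM with EGF alone, with no overlap among the 3. The difference was 3.17 ± 0.13 (adjusted p = 8.53e-26), and both inhibitors were above EGF alone (4.54 and 1.38). KCNQ1OT1, a long RNA antisense to KCNQ1 in the same imprinted domain, was higher too, at 102 and 108 against 33.3 and 28.9 CPM (1.77 ± 0.13); since no source used here gives the strand setting of the counts, KCNQ1 reads may be among them. CDKN2C (chr1:50960745-50974633), which encodes p18 and binds CDK4 and CDK6, was at 41.7 and 54.0 against 4.48 and 5.69 CPM, with 18.5 and 19.8 CPM for EGF alone between them (3.23 ± 0.17). In G1-called cells CDKN1C differed by 2.81 and CDKN2C by 1.87, both called.

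Their list, which holds CDK inhibitors and cyclins of G1 and includes CDKN1C and CDKN2C, was mixed. In it 6 of 19 tested members were higher and 4 lower (5 and 3 without the library term). CCND1, the D-type cyclin induced by ERK, was at 31.1 and 25.1 CPM with the MEK inhibitor, 105 and 117 CPM with the PI3K inhibitor and 90.5 and 117 CPM with EGF alone (-2.04 ± 0.13, adjusted p = 1.34e-19). CDK6, its kinase partner, was at 50.2 and 51.2 against 95 and 83.6 CPM (-0.81 ± 0.11), and CCND3 at 33.1 and 38.5 against 55.2 and 55.1 CPM (-0.61 ± 0.12). CDKN1B, which encodes p27, was higher with the MEK inhibitor at 20.1 and 16.9 against 9.95 and 8.78 CPM (0.97 ± 0.19), but not in G1-called cells (adjusted p = 0.239). CDKN2D, which encodes p19, was higher in all cells (1.24 ± 0.13) and of the opposite sign in G1-called cells (-0.24, adjusted p = 0.409). CDKN1A, which encodes p21, overlapped in all cells (54.0 and 41.0 against 49.5 and 46.2 CPM, adjusted p = 0.817) and was higher with the MEK inhibitor in G1-called cells (0.49, adjusted p = 0.00487).

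Genes of sterol synthesis were higher with the MEK inhibitor almost throughout. Of 23 tested genes of sterol synthesis and uptake, 20 were higher with the MEK inhibitor, 0 were lower, and the median was 1.10. HMGCS1, the enzyme that makes HMG-CoA for the pathway, was at 55.7 and 91.1 CPM with the MEK inhibitor, 15.4 and 23.6 CPM with the PI3K inhibitor and 62.0 and 83.2 CPM with EGF alone (1.91 ± 0.13, adjusted p = 1.03e-17). FDPS (chr1:155308748-155320666), which makes farnesyl diphosphate, was at 403 and 536 against 149.7 and 182 CPM (1.5 ± 0.09, adjusted p = 8.24e-20), with 444 and 483 CPM for EGF alone. The 2 inhibitors did not overlap for either gene, and the MEK inhibitor did not pass the test against EGF alone for HMGCS1 (adjusted p = 0.931) or FDPS (adjusted p = 0.939), where the PI3K inhibitor was lower (-1.90 and -1.49). EBP (1.46 ± 0.09), IDI1 (1.40 ± 0.10) and MVD (1.45 ± 0.12), other enzymes of the route, differed by like amounts. In G1-called cells 20 of 23 were higher and 0 lower, with a median of 1.22, and 18 higher and 0 lower in G2/M-called cells. A sterol regulatory element of the form TCACNCCAC was found in 1 of 18 promoters of the list (5.56%), that of SREBF2, and in 1.04% of those of tested genes.

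**Figure D4:**
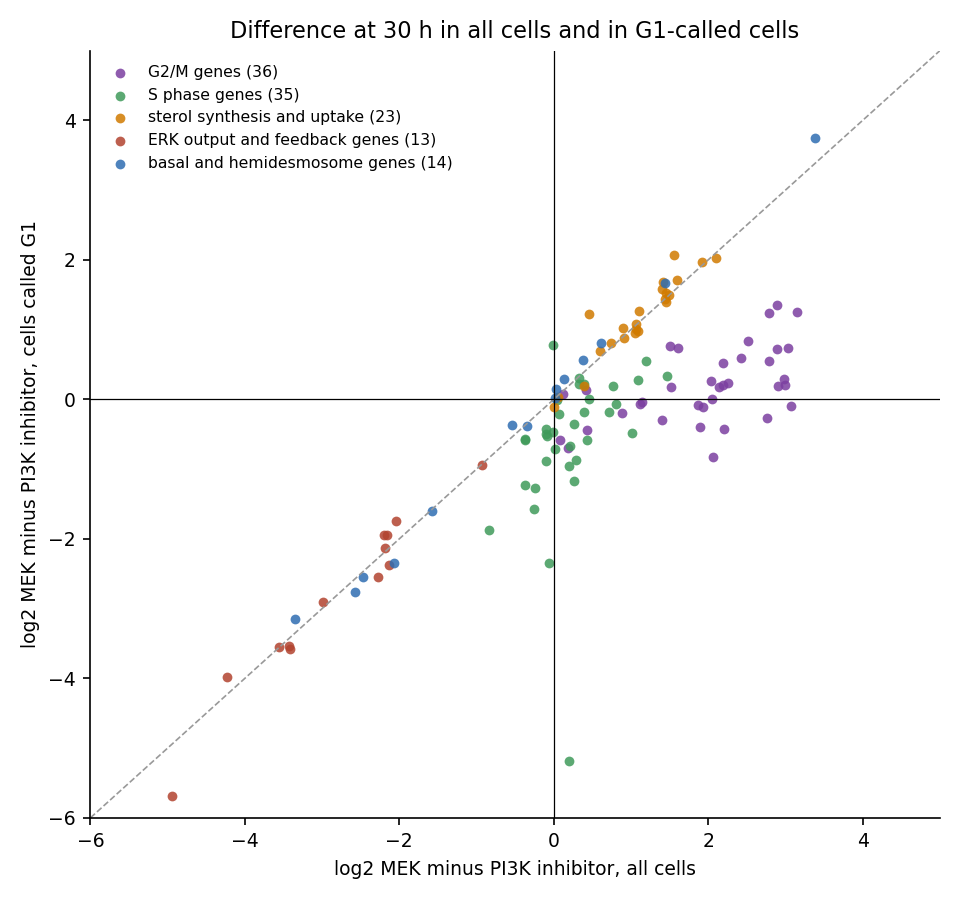
Log2 difference between the inhibitors at 30 h in all cells (x axis) and in cells called G1 only (y axis), 1 point per gene, for members of 5 lists tested in both; the dashed line is equality. ERK, sterol and hemidesmosome genes lie near the line, while G2/M genes, with medians of 2.26 in all cells and 0.18 in G1-called cells, lie below it. Phase was called with the G2/M and S phase genes themselves.

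Fatty acid synthesis followed, with 10 of 12 tested genes higher and 0 lower (7 higher without the library term). FADS1, a desaturase, was at 33.9 and 41.0 against 8.95 and 11.1 CPM (1.90 ± 0.18), ELOVL6, an elongase, at 31.9 and 35.2 against 11.2 and 10.7 CPM (1.63 ± 0.16), and SCD, the stearoyl-CoA desaturase, at 52.7 and 60.6 against 22.6 and 18.4 CPM (1.5 ± 0.14). For SCD the MEK inhibitor did not pass the test against EGF alone (adjusted p = 0.81), and the PI3K inhibitor was lower (-1.55).

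Amino acid supply showed single large differences within a mixed list, 6 of 18 tested genes being higher and 4 lower. SLC3A2, the heavy chain of the large neutral amino acid transporter, was at 623 and 793 CPM with the MEK inhibitor, 153 and 235 CPM with the PI3K inhibitor and 292 and 409 CPM with EGF alone (1.88 ± 0.10, adjusted p = 5.70e-22). Its light chain SLC7A5 differed by 1.18 ± 0.09, and PSAT1, of serine synthesis, was at 72.8 and 59.1 against 11.9 and 16.1 CPM (2.17 ± 0.15). ATF4, the transcription factor that induces these genes, was lower with the MEK inhibitor, at 51.7 and 48.8 against 131 and 127 CPM (-1.36 ± 0.12), and TRIB3, its pseudokinase target, was lower as well (-1.35 ± 0.23).

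Of 17 tested genes of glycolysis and glucose uptake, 7 were higher and 4 lower (7 and 2 without the library term). SLC2A1, the glucose transporter GLUT1, was at 73.1 and 89.4 against 20.6 and 27.5 CPM (1.75 ± 0.12), and PGK1, a glycolytic kinase, at 309.6 and 286 against 133 and 142 CPM (1.11 ± 0.09). PFKP, the platelet-type phosphofructokinase, was lower, at 60.8 and 62.6 against 127 and 144 CPM (-1.14 ± 0.10). The MEK inhibitor gave lower levels for 17 of 27 tested ribosome biogenesis genes and higher for 0 (10 and 0 without the library term), with a median of -0.42. BOP1, of large subunit assembly, was at 55.0 and 53.6 against 130.0 and 147 CPM (-1.36 ± 0.10), and ODC1, the rate-limiting enzyme of polyamine synthesis and a MYC target, at 45.7 and 57.8 against 138 and 144 CPM (-1.44 ± 0.12). For both the PI3K inhibitor did not pass the test against EGF alone (adjusted p = 0.801 and 0.873). The whole ribosome biogenesis list had a median log2 difference from EGF alone of -0.88 with the MEK inhibitor and -0.46 with the PI3K inhibitor.

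Genes of squamous differentiation were higher with the MEK inhibitor in 12 of 21 tested members, lower in 0, with a median of 0.87 (8 higher without the library term; 13 of 19 higher with a median of 1.36 in G1-called cells). TGM1, the transglutaminase that crosslinks the cornified envelope, was at 77.6 and 91.5 against 16.4 and 26.2 CPM (1.97 ± 0.14, adjusted p = 1.48e-17). KRT10, a keratin of differentiating layers, was at 593 and 551 against 292 and 272 CPM (1.02 ± 0.11), and DSG3, a desmosomal cadherin, at 118 and 156 against 45.7 and 72.4 CPM (1.23 ± 0.12). KRT16, a stress keratin, was at 1006 and 1028 CPM with the MEK inhibitor, 546 and 569 CPM with the PI3K inhibitor and 74.1 and 101 CPM with EGF alone. It was above EGF alone with either inhibitor (3.54 and 2.67), and the inhibitors differed by 0.87 ± 0.15 (adjusted p = 5.43e-06, and 0.0666 without the library term). SERPINB13, a keratinocyte protease inhibitor outside the list, had one of the largest differences of all, at 88.1 and 104 against 1.74 and 3.90 CPM (5.03 ± 0.22).

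The small heat shock proteins HSPB1 and CRYAB differed most among the chaperones. HSPB1, which encodes HSP27, was at 1606 and 2027 CPM with the MEK inhibitor, 159.9 and 252 CPM with the PI3K inhibitor and 151 and 216 CPM with EGF alone (3.15 ± 0.14, adjusted p = 1.61e-24). CRYAB, which encodes alpha-B-crystallin, was at 66.3 and 44.6 against 5.97 and 5.20 CPM (3.26 ± 0.17). The PI3K inhibitor did not pass the test against EGF alone for HSPB1 (0.16, adjusted p = 0.405). Of 13 tested chaperone genes 9 were higher and 4 lower (7 and 2 without the library term). HSPA8, the constitutive HSP70, was the lowest, at 560.0 and 716 against 1217 and 1364 CPM (-1.02 ± 0.10).

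The rest of the 12 largest differences each way, taken among genes with at least 20 CPM in either condition, lay mostly outside the lists. Lower with the MEK inhibitor was MT2A, a metallothionein that binds zinc, at 1426 and 1475 CPM against 17882 and 13985 CPM with the PI3K inhibitor and 5476 and 5648 CPM with EGF alone (-3.44 ± 0.19), a value that is uncertain because reads of its near-identical family members could be split by the counting. RGCC, a cell cycle regulator, was at 1.00 and 1.04 against 27.1 and 22.6 CPM (-4.55 ± 0.30), with 2.11 and 2.54 CPM for EGF alone. ANGPTL4, a secreted lipoprotein lipase inhibitor, was at 5.02 and 6.60 against 53 and 87.3 CPM (-3.61 ± 0.18). The PI3K inhibitor libraries were the highest of the 3 conditions for MT2A and RGCC. SLC7A2 (-3.59 ± 0.20), a cationic amino acid transporter, CAMK2N1 (-3.33 ± 0.14), an inhibitor of CaM kinase II, and FAM110C (-3.71 ± 0.27) completed that end.

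At the other end, ALDH3A1, an aldehyde dehydrogenase, was at 161 and 224 CPM with the MEK inhibitor and 9.95 and 13.7 CPM with the PI3K inhibitor (4.02 ± 0.14, adjusted p = 9.91e-30). LOX, which crosslinks collagen, was at 22.3 and 40.8 against 0.995 and 1.95 CPM (4.38 ± 0.27), and EPHB6, a kinase-dead ephrin receptor, at 47.2 and 47.3 against 1.49 and 3.90 CPM (3.99 ± 0.22). With EGF alone their levels were 21.1 and 25.4 CPM for ALDH3A1, 2.90 and 2.54 CPM for LOX and 5.54 and 3.21 CPM for EPHB6, below the MEK inhibitor in both libraries. NEURL1B (4.55 ± 0.30), GPR1 (4.01 ± 0.25), SELENBP1 (3.94 ± 0.30), GMPR (3.67 ± 0.21) and the antisense transcript IGFL2-AS1 (4.52 ± 0.21) were the remaining ones. Reads of the opposite strand may be counted in the last, since the strand setting is unknown.

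Of 13 tested targets of the YAP and TEAD factors, 6 were lower with the MEK inhibitor and 0 higher (4 without the library term). NT5E, the ectonucleotidase CD73, was at 15.1 and 16.6 against 148 and 138 CPM (-3.14 ± 0.12, adjusted p = 9.05e-27), and CTGF, a matricellular protein, at 4.02 and 10.5 against 31.8 and 57.9 CPM (-2.59 ± 0.18). Matrix and mesenchymal genes were split evenly, 6 of 15 each way (5 higher and 4 lower without the library term). THBS1, which encodes thrombospondin, was lower (-2.33 ± 0.28) and TGFBI, a TGF-beta-induced matrix protein, higher (0.83 ± 0.09).

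Transcripts of the mitochondrial genome were higher with the MEK inhibitor for 8 of 13 genes and lower for 0, but for 2 without the library term, and the median was small at 0.28. Cells with the MEK inhibitor had median mitochondrial shares of 6.05% and 5.74% of UMIs, against 4.64% and 4.68% with the PI3K inhibitor and 4.89% and 4.99% with EGF alone. MT-ND5, a complex I subunit, was at 571 and 597 against 407 and 408 CPM (0.52 ± 0.09). The part of RNA quality in the results was not tested.

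Many of these differences were present at 20 h, 5 h after the inhibitors, and part of them were larger at 30 h. At 20 h, 2410 of 11147 genes (21.6%) were called between the inhibitors (11.2% higher and 10.4% lower), and the difference itself changed between the times for 1045 genes (9.37%), 625 upwards (5.61%) and 420 downwards (3.77%), though for 84 without the library term. The ERK list had a median of -2.91 at 20 h against -2.63 at 30 h, and the change of DUSP6 between the times did not pass the test (-0.95 ± 0.50, adjusted p = 0.255). Sterol genes had a median of 0.36 at 20 h against 1.10 at 30 h, and S phase genes 0.83 against 0.20.

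KRT15 was the gene with the largest such change among those called with and without the library term. At 20 h it was at 14.8 and 21.7 CPM with the MEK inhibitor and 15.7 and 21.8 CPM with the PI3K inhibitor, overlapping values, and the change by 30 h was 3.40 ± 0.35 (adjusted p = 4.60e-10). CDKN1C was already higher at 20 h (125 and 81.2 against 30.4 and 29.2 CPM) and its difference grew by 1.38 ± 0.22. CCND1 was at 45.8 and 59.8 against 54.0 and 57.4 CPM at 20 h, where its difference of -0.09 did not pass the test (adjusted p = 0.717), and both inhibitors were below the 129 and 173 CPM of EGF alone. By 30 h only the MEK inhibitor libraries were low, a change of -1.95 ± 0.20 (adjusted p = 1.72e-10).

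CCNG2 lost its difference with time. At 20 h it was at 10.1 and 8.15 CPM with the MEK inhibitor and 32.9 and 28.7 CPM with the PI3K inhibitor, and at 30 h at the overlapping values above, a change of 1.72 ± 0.26 (adjusted p = 2.55e-06). The MEK inhibitor libraries were the ones whose level moved. UBALD2 narrowed as well, from -3.35 at 20 h to -0.63 at 30 h, where it was not called without library 1. The laminin and integrin genes widened, LAMB3 from -1.98 to -3.35 and ITGB4 from -1.06 to -2.57, as the PI3K inhibitor level of LAMB3 went from 272 and 311 to 558 and 594 CPM.

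**Figure D5:**
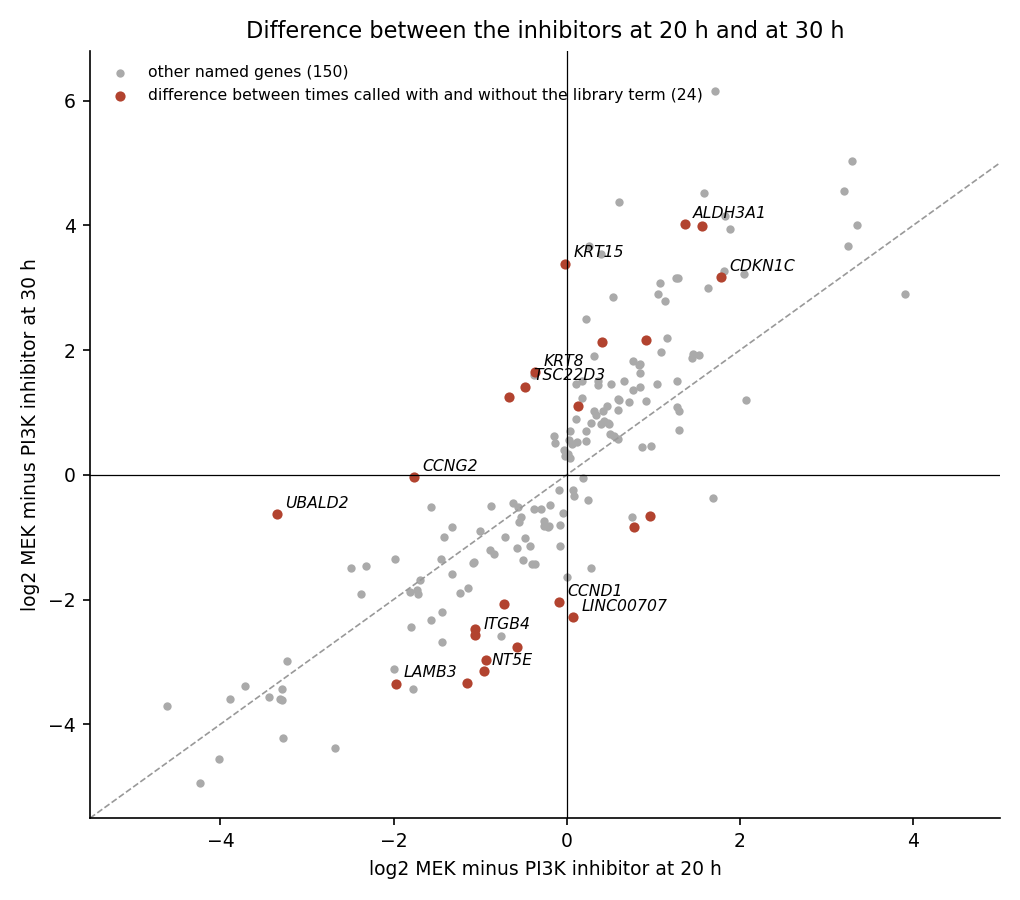
Log2 difference between the inhibitors (MEK minus PI3K) at 20 h (x axis) and 30 h (y axis) for the 174 named genes, with red points for the 24 whose difference changed between the times both with and without the library term; the dashed line is equality. KRT15 lies at -0.01 and 3.38, CCNG2 at -1.76 and -0.04.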

How the data were processed

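Per the labels' protocols, a BD Single-Cell Multiplexing Kit tag marked the cells of every condition before pooling, and the pool was fixed in methanol and frozen. The authors deposited UMI counts for each cell and gene symbol, with no normalisation. Cell Ranger 3.0.2, Seurat and GRCh38 are named in the submitters' processing notes; no source used here gives the tag rule, cell filter, annotation release or strand setting. Barcodes called doublets (56.1% and 40.2% of those listed) or negative carry no condition and were left out; doublets within a tag stay in. The 16387 genes listed in both tables were used.

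Counts were summed per condition and library. The 16 sums were fitted with edgeR 4.0.16 (R 4.3.3, limma 3.58.1; filterByExpr with a minimum count of 10, TMM, quasi-likelihood F test, library as a block), which gave 7 residual degrees of freedom and a biological coefficient of variation of 0.0604. The standard error is the log2 difference divided by the square root of F. CPM use TMM-scaled totals, and log2 differences per library a prior count of 2. The libraries are separate biological replicates per the labels, with n = 2. The block follows from the pooling; deviations of conditions from their means correlated within a library (4706 genes of at least 20 CPM, median r 0.588, 0.281 to 0.677 over 28 pairs). The fit was tested on simulated data.

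Phase was called with Scanpy 1.11.5 from S and G2/M gene scores, in cells of at least 6500 UMIs thinned to that number; shallower cells were left out (MEK inhibitor 28 and 47, PI3K inhibitor 28 and 53). Named genes (174, of which 170 were called) were the 12 largest differences each way (called, same sign in both libraries, at least 20 CPM in either condition), up to 5 called members per list by adjusted p, members called against their list, a fixed list, and the 6 largest changes each way between 20 h and 30 h. The members and the 24 lists (496 entries, 25 not matched in both tables, 2 matched by an older symbol) were chosen with earlier results of these data known. One of the named genes is counted in its list but not reported here. Gene positions come from GENCODE v29 on GRCh38, promoters from RefSeq for GRCh38.p14. Alternatives were DESeq2 1.42.0, other scaling and filters, thinned counts, subsets of cells, and leaving out the block or a library. Leaving out a library removed only its sums of the inhibitor conditions compared, and its other conditions stayed in the fit.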

Additional observations from a re-analysis of the deposited data

Results flagged for a closer look

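For 24 of the named genes the difference between the inhibitors changed between 20 h and 30 h both with and without the library term (edgeR's quasi-likelihood test of the change, adjusted p under 0.05, n = 2 libraries). Values are the log2 difference at 30 h minus that at 20 h. These genes were picked from the same data in part for that change, so the count is a description, and the values of all but 1 follow.

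The change was upwards for KRT15 (3.40), UBALD2 (2.71), ALDH3A1 (2.66), EPHB6 (2.43), KRT8 (2.01), CDKN2D (1.91), TSC22D3 (1.90), MUC1 (1.73), CCNG2 (1.72), CDKN1C (1.38), PSAT1 (1.25) and PGK1 (0.98). TSC22D3, a FOXO target, crossed sides: it was at 84.3 and 76.7 CPM with the MEK inhibitor and 131 and 89.1 CPM with the PI3K inhibitor at 20 h (-0.48, adjusted p = 0.00308) and at 182 and 169.7 against 67.4 and 64.2 CPM at 30 h. CDKN2D, which encodes p19, also crossed, from -0.67 (adjusted p = 0.00387) to 1.24.

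The change was downwards for LINC00707 (-2.35), ABCC3 (-2.20), NT5E (-2.19), CAMK2N1 (-2.18), PITPNC1 (-2.04), CCND1 (-1.95), WDR76 (-1.62), CDCA7 (-1.61), ITGB4 (-1.51), LAMA3 (-1.41) and LAMB3 (-1.37). ABCC3, an organic anion exporter, was at 20.6 and 18.1 against 32.3 and 25.7 CPM at 20 h and 8.79 and 4.98 against 48.7 and 39.8 CPM at 30 h. The replication-linked genes WDR76 and CDCA7 went from higher with the MEK inhibitor at 20 h (0.97 and 0.77) to lower at 30 h (-0.65 and -0.83).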

How the results depend on the processing

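Among 2041 pairs of a named gene and an alternative, 1910 kept direction and side of the threshold, 124 kept direction but were no longer called, 0 kept direction and became called, and 7 reversed. All 7 were in cells of 1 phase. In G1-called cells they were CDKN2D (-0.24), RAD51AP1 (-0.48), FEN1 (-0.18), UBE2C (-0.088), ZMAT3 (0.049) and CDKN1A (0.49, not called in all cells and called there), and in G2/M-called cells RAD51AP1 (-0.036). RAD51AP1, FEN1 and UBE2C are among the genes from which phase was called. The G2/M subset was chosen after seeing the data. The 4632 genes called at 30 h became 2703 without the replicate block (1415 higher, 1288 lower), 3071 in G1-called cells (1577 and 1494, of 8882 tested) and 2523 in G2/M-called cells (1289 and 1234, of 8687 tested). They became 3550 with DESeq2 (1861 higher, 1689 lower) and 3244 with cells thinned to 6500 UMIs (1690 and 1554, of 9827 tested). Leaving out 1 library gave 2713 to 3454 called (1418 to 1759 higher, 1295 to 1695 lower), with the lone sample of a condition assumed to vary like the others. Library totals as scaling gave 2670 higher and 1964 lower. The 2410 genes called at 20 h became 999 without the block, 1358 with cells thinned to 6500 UMIs and 1244 in G1-called cells. The 1045 genes whose difference changed between the times became 84 without the block, 656 with DESeq2, 540 after thinning, 396 in G1-called cells and 334 to 418 without 1 library. The phase subsets and thinned counts had fewer genes to test, the fits without 1 library did not, and the cause of these moves was not tested. The mean G2/M share with the PI3K inhibitor was 13.8%, and 18.8% when phase was called from the summed shares of the gene lists. A gene not called here may differ by less than 2 libraries of this depth can show.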

Other observations

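Targets of p53 were split at 30 h, 6 of 16 tested being higher with the MEK inhibitor and 2 lower (3 and 0 without the library term). GDF15, a stress-induced cytokine, was at 25.4 and 14.4 CPM with the MEK inhibitor, 2.49 and 2.44 CPM with the PI3K inhibitor and 11.9 and 7.61 CPM with EGF alone (2.90 ± 0.27, adjusted p = 7.56e-13, edgeR). FDXR, which encodes the mitochondrial ferredoxin reductase, was at 57.5 and 49.6 against 23.9 and 23.3 CPM (1.17 ± 0.13). The inhibitors did not overlap for either gene.

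Interferon-stimulated genes were higher in 7 of 12 tested members and lower in 1, with a median of 0.62 (5 and 1 without the library term). IFITM3, which restricts virus entry, was at 162 and 123 CPM with the MEK inhibitor and 74.6 and 64.9 CPM with the PI3K inhibitor (1.02 ± 0.10, adjusted p = 9.96e-12). HLA-C, a class I antigen-presenting molecule whose reads can be shared with its close relatives, differed by 0.62 ± 0.11. The member called lower was IRF7, the transcription factor of the interferon response, at 0.753 and 1.04 against 4.23 and 5.85 CPM (-2.44 ± 0.44).

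Of 25 tested lysosome and autophagy genes, 11 were higher with the MEK inhibitor and 4 lower (6 and 3 without the library term). CTSB, which encodes the protease cathepsin B, was at 128 and 145 CPM with the MEK inhibitor, 465 and 498 CPM with the PI3K inhibitor and 129.5 and 155 CPM with EGF alone (-1.82 ± 0.09, adjusted p = 2.81e-22). GLA, which encodes alpha-galactosidase, went the other way (1.37 ± 0.14). The autophagy genes MAP1LC3B (-0.68 ± 0.09) and SQSTM1 (-0.55 ± 0.09) were lower with the MEK inhibitor.

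Among markers of other cell types, DCN and CD14 were called higher with the MEK inhibitor and CD68 and ACTA2 lower. CD68 and ACTA2 were not called without the library term (adjusted p = 0.0523 and 0.148).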
